A study of Mus musculus with 15 samples.

Results

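Hes1 and 9 other genes of the endothelial Notch pathway were followed in cultured mouse LECs (lymphatic endothelial cells) after treatment with angiotensin II (Ang II), the peptide hormone of the renin-angiotensin system. The members were Dll4, Jag1 and Jag2 (ligands), Notch1 and Notch4 (receptors), Rbpj (the DNA-binding effector) and Hes1, Hey1, Hey2 and Heyl (target genes). They were chosen by their gene symbols, and Hes1 was chosen on its low level at 24 h in these same arrays. Each member had 1 probe set, so 10 of 19505 genes with a symbol of their own on the array are described. The arrays came in 3 groups of 5 samples: Ang II at 500 nM for 24 h, Ang II at 500 nM for 12 h, and a saline control. All cells were purchased mouse LECs, which the labels call a cell line and the paper calls primary cells, and all were grown in DMEM with fetal bovine serum. The dose is that of the labels, and the methods also print a lower concentration for the same treatment. The paper names saline at both times in its description of the array comparisons, but there is 1 set of 5 control arrays and the labels give it no time, so Ang II and time in culture cannot be told apart. The replicates are numbered but nothing ties them to separate cultures, so the p-values reflect array-to-array spread that could be purely technical.

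Notch signaling works between touching cells. A ligand of the Delta or Jagged family on a cell binds a Notch receptor on its neighbor, gamma-secretase frees the intracellular part of the receptor, and this part joins Rbpj on DNA and switches on Hes and Hey genes, whose products are repressors. In endothelium the pathway is known for setting tip cells apart from stalk cells in a sprout and for arterial identity. Hes1 messenger RNA is short-lived in mouse cells and its protein represses its own gene.

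The values are log2 expression levels made by RMA, a method that corrects background, normalizes the arrays and sums the probes of a probe set, so a difference of 1 means a doubling or halving of the signal. Replicate 3 of Ang II 24 h and replicate 3 of the control group stood furthest from the other arrays, with residual SDs (spread around the group means over all probe sets) of 0.299 and 0.335, against 0.258 to 0.285 in the other 13 arrays. A level of 6.26, the 95th percentile of 487 probe sets of families such as vomeronasal and taste receptors, served as a mark of low signal. It does not part expressed from silent genes, because levels depend on the probes. Hes1, Hey1 and Rbpj averaged above the mark over the 15 arrays, and the other 7 members averaged below it. Of 34 cell type markers, Nr2f2 (11.50) and Ccl21a (6.43) of the 8 lymphatic markers lay above the mark, while Prox1 (5.09), Lyve1 (4.32) and Flt4 (4.62) did not. None of 7 general endothelial markers did, Pecam1 (3.74) and Cdh5 (4.54) included. Of 4 epithelial markers, the keratin genes Krt8 (7.96) and Krt18 (6.33) lay above the mark, and Epcam (3.68) and Cdh1 (4.86) below it. Of 4 leukocyte markers, Ptprc (7.03) lay above it, and Adgre1 (5.17), Itgam (4.23) and Cd3e (5.06) below it. None of 5 fibroblast or 6 smooth muscle and pericyte markers lay above the mark. Because a level below the mark does not mean silence, these values leave the labelled cell type undecided. The study identified the cells by immunostaining for LYVE-1 and VEGFR-3. It also reported qPCR of LYVE-1, VEGFR-3 and Prox1 and an immunoblot of VEGFR-3 in them.

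Hes1 was lower in the Ang II groups than in the control group, and lowest at 24 h. Its log2 levels were 6.14, 5.75, 5.17, 5.95 and 5.63 in the 5 arrays at 24 h. They were 6.66, 6.63, 6.61, 6.61 and 6.28 at 12 h, and 6.88, 6.90, 7.23, 6.93 and 7.19 in the control group. The 3 groups did not overlap. The lowest array at 24 h and the highest control array were the pair that stood apart, and 10 of the 15 arrays, those of the control group and of 12 h, lay above the mark of low signal. The means were 5.73 ± 0.37 at 24 h, 6.56 ± 0.16 at 12 h and 7.03 ± 0.17 in the control group (SD, n = 5 each).

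At 24 h the difference from control was -1.30 on the log2 scale (standard error 0.16, 95% interval -1.64 to -0.96), which leaves 40.7% of the control signal. This contrast put Hes1 among the members, so the difference is a description without a test, and its interval takes no account of that choice. Among 22206 probe sets this was the third largest difference in size in either direction, and leaving out single arrays moved it between -1.40 and -1.16. Without both arrays that stood apart it was -1.11. At 12 h the difference from control was -0.47 (standard error 0.16), or 72.3% of the control signal, and limma gave an adjusted p of 0.966. At 24 h against 12 h the difference was -0.83 (standard error 0.16, limma adjusted p = 0.169). Both of these contrasts share arrays with the contrast that chose Hes1, and neither passed over all probe sets. In such bulk samples, fewer cells of a type and less RNA per cell cannot be told apart. Of the 34 cell type markers, 5 had an unadjusted p under 0.05 at 24 h against control, Kdr, Lum and Ptprc higher and Vwf and Epcam lower, and 0 passed after adjustment by limma. These 5 were 14.7% of the markers, beside 7.1% of all probe sets. Their part in the Hes1 difference was not tested.

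**Figure D1:**
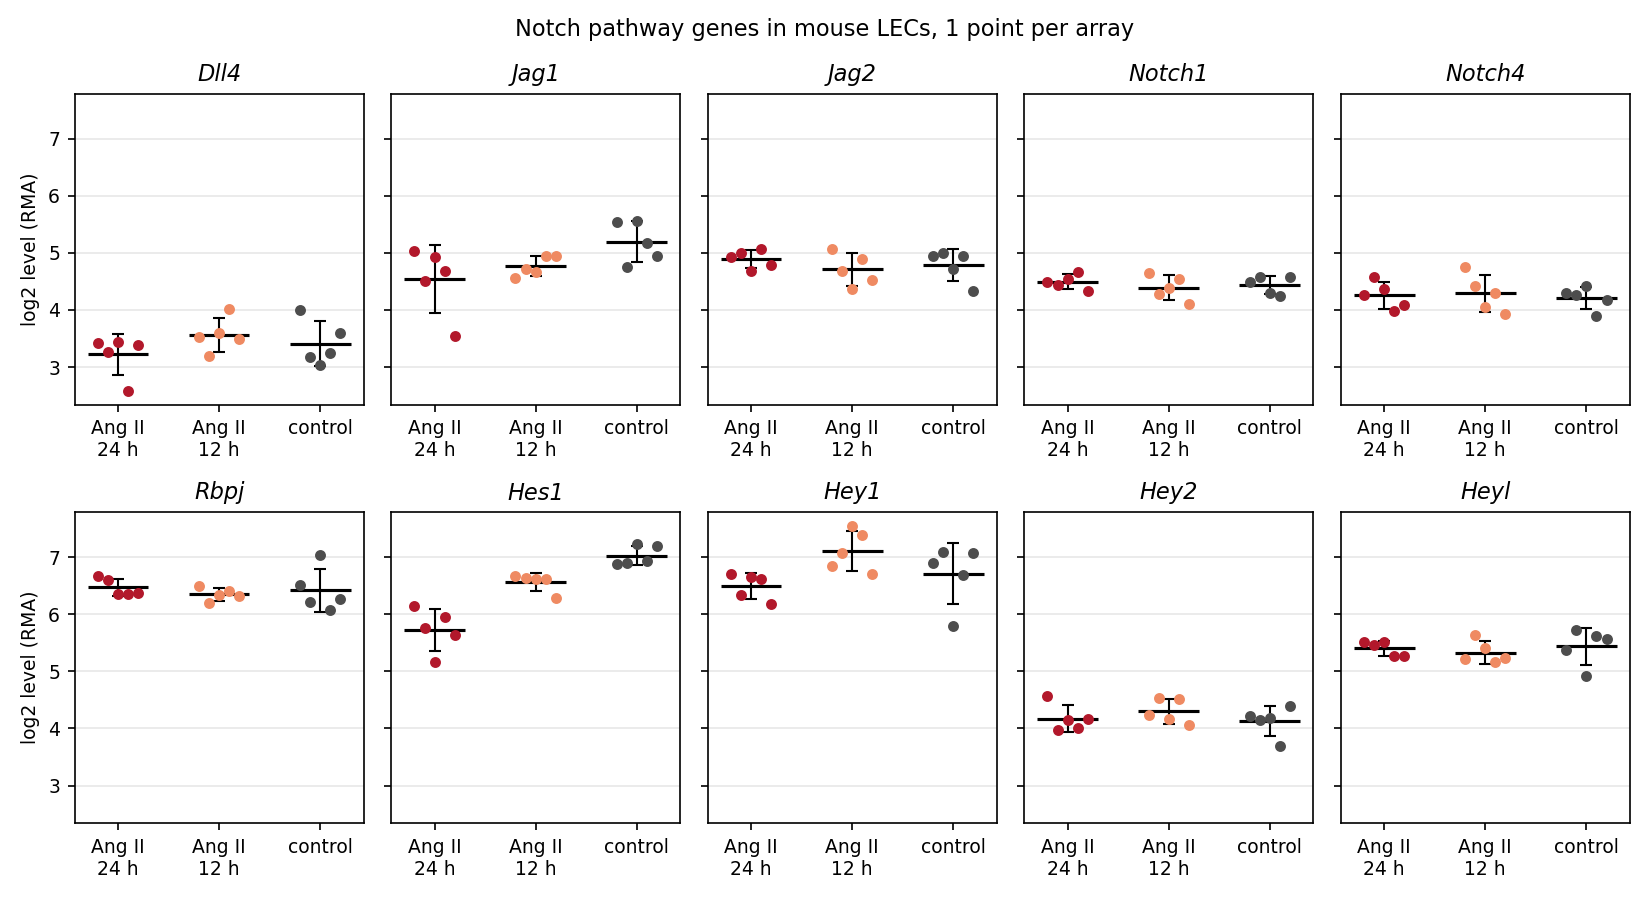
Log2 expression level (RMA, vertical axis) of the 10 Notch pathway genes in the arrays of Ang II 24 h, Ang II 12 h and control, with 1 point per array, bars at the group means and whiskers of 1 SD (n = 5). Hes1 is the gene whose 3 groups do not overlap, between 5.17 and 6.14 at 24 h, 6.28 and 6.66 at 12 h, and 6.88 and 7.23 in the control group. Levels are compared within a panel only, since each gene has its own probes.

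Of the other target genes, Hey1 had a difference between the Ang II groups that did not pass the test, and Hey2 and Heyl overlapped throughout. Hey1, a repressor of the Hes-related family that acts in arterial and sprouting endothelium, had log2 levels of 6.70, 6.34, 6.65, 6.62 and 6.17 at 24 h. At 12 h it had 6.84, 7.07, 7.54, 7.39 and 6.71, and in the control group 6.90, 7.09, 5.79, 6.69 and 7.07. All 5 arrays at 24 h lay below all 5 at 12 h, with 6.70 against 6.71 at the closest pair, while the control group overlapped both. The 24 h minus 12 h difference of Hey1 was -0.61 (standard error 0.22, unadjusted p = 0.0118, limma adjusted p = 0.787). Against control, Hey1 had 0.40 at 12 h (standard error 0.22, adjusted p = 0.966) and -0.21 at 24 h (standard error 0.22, adjusted p = 0.903). Its lowest control level, 5.79, came from replicate 3, the array that stood apart. Without that array the differences of Hey1 from control were 0.17 at 12 h and -0.44 at 24 h (adjusted p = 0.788 at 24 h), so both values moved with this array.

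Hey2 and Heyl, relatives of Hey1 that are known from the heart and the vessel wall, did not pass in any comparison. Hey2 lay between 3.98 and 4.56 at 24 h, 4.06 and 4.54 at 12 h, and 3.69 and 4.40 in the control group. Heyl lay between 5.26 and 5.51 at 24 h, 5.16 and 5.64 at 12 h, and 4.91 and 5.73 in the control group. The groups overlapped for both genes in every comparison, and the largest difference was 0.17, that of Hey2 at 12 h against control. The 95% intervals of the 24 h minus control differences were -0.29 to 0.38 for Hey2 and -0.37 to 0.29 for Heyl. Both genes lay below the mark of low signal on every array. The lowest control level of Heyl, 4.91, was again that of replicate 3.

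The upstream window of Hey2 holds the Rbpj core letters TGGGAA at 2 places, and these are shown because they are the core of the site that Rbpj binds. The core is only a part of that site, so a match to it does not make a site. The windows run from 250 bases before to 50 after the RefSeq start in GRCm38.p6 and were found for 7 of the 10 members (Hey2, Notch1, Notch4, Dll4, Jag1, Jag2 and Rbpj). The motif, in capitals, is read on either strand (TGGGAA or TTCCCA), and position counts from the start to the first capital. Each line runs 5′ to 3′ on the strand of its gene.
Hey2, position -207, chr10:30842973-30843002, minus strand: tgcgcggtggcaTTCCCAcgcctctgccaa
Hey2, position -3, chr10:30842769-30842798, minus strand: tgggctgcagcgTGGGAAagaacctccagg
Rbpj, position -149, chr5:53590185-53590214, plus strand: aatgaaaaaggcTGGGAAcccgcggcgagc
Rbpj, position -65, chr5:53590269-53590298, plus strand: gacgctcgcattTTCCCAggacccctcctc
These letters occur in 25.6% of 32851 such windows of all genes, and 2 of the 7 members with a window held them. The first share counts windows and the second counts genes, of which Rbpj has 2 windows, so they are not like for like. The windows of Notch1, Notch4, Dll4, Jag1 and Jag2 did not. The second match in Rbpj also lies in the window of a further RefSeq start of that gene. Of the other motifs searched on both strands, the N box CACNAG was held by Notch1 and Dll4 (42.5% of all windows), CACGCG by Dll4, Jag1 and Jag2 (9.27%) and CACGTG by none of the 7 (7.15%), the last 2 being E box forms that Hes and Hey proteins bind. A match is a description of the letters alone. No windows were found for Hes1, Hey1 and Heyl, so these genes were not analysed here. Neither Hey2 nor Rbpj passed the test in any comparison.

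Rbpj, the protein through which all Notch receptors act on DNA, did not pass the test in any comparison. It had log2 levels of 6.67, 6.60, 6.35, 6.36 and 6.37 at 24 h. It had 6.50, 6.20, 6.33, 6.41 and 6.31 at 12 h, and 6.51, 6.22, 7.03, 6.08 and 6.26 in the control group. The groups overlapped, and the highest value was that of control replicate 3. The differences of Rbpj were 0.05 at 24 h against control (95% interval -0.29 to 0.39, limma adjusted p = 0.975), -0.07 at 12 h against control (adjusted p = 0.991) and 0.12 at 24 h against 12 h (adjusted p = 0.962). Without control replicate 3 the difference from control was 0.20 at 24 h and, with its sign turned, 0.08 at 12 h.

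Among Dll4, Jag1 and Jag2, the largest difference was that of Jag1. Jag1, a Jagged ligand that acts in angiogenic sprouts and in the vessel wall, had log2 levels of 5.04, 4.51, 4.92, 4.68 and 3.55 at 24 h. It had 4.56, 4.71, 4.67, 4.95 and 4.95 at 12 h, and 5.54, 4.76, 5.56, 5.17 and 4.95 in the control group. The means were 4.54 ± 0.59 at 24 h, 4.77 ± 0.18 at 12 h and 5.20 ± 0.35 in the control group (SD, n = 5 each), and the groups overlapped. At 24 h against control the difference of Jag1 was -0.66 (standard error 0.23, unadjusted p = 0.00946), and limma's adjusted p of 0.565 did not pass. At 12 h against control it was -0.43 (standard error 0.23, adjusted p = 0.966), and at 24 h against 12 h -0.23 (adjusted p = 0.945). Replicate 5 at 24 h had the lowest level, 3.55, and without it the 24 h difference from control was -0.41 (adjusted p = 0.732).

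Dll4, the Delta ligand of tip cells and arteries, lay between 2.59 and 3.44 at 24 h, 3.20 and 4.01 at 12 h, and 3.04 and 4.00 in the control group. All groups overlapped, and every array lay below the mark of low signal. The differences of Dll4 were -0.19 at 24 h against control, 0.15 at 12 h against control and -0.34 at 24 h against 12 h (limma adjusted p = 0.904, 0.984 and 0.886). Jag2, the second Jagged ligand, lay between 4.69 and 5.06 at 24 h, 4.36 and 5.07 at 12 h, and 4.34 and 5.00 in the control group, and its largest difference was 0.18, at 24 h against 12 h (adjusted p = 0.932).

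Neither receptor gene differed beyond its spread. Notch1, the main Notch receptor of endothelium, averaged 4.50 ± 0.13 at 24 h, 4.39 ± 0.22 at 12 h and 4.43 ± 0.15 in the control group (SD, n = 5 each). Notch4, a receptor largely restricted to endothelium, averaged 4.26 ± 0.23 at 24 h, 4.29 ± 0.32 at 12 h and 4.21 ± 0.19 in the control group (SD, n = 5 each). Neither passed in any comparison, and the 95% intervals at 24 h against control were -0.22 to 0.35 for Notch1 and -0.30 to 0.39 for Notch4. Both genes lay below the mark of low signal on every array.

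**Figure D2:**
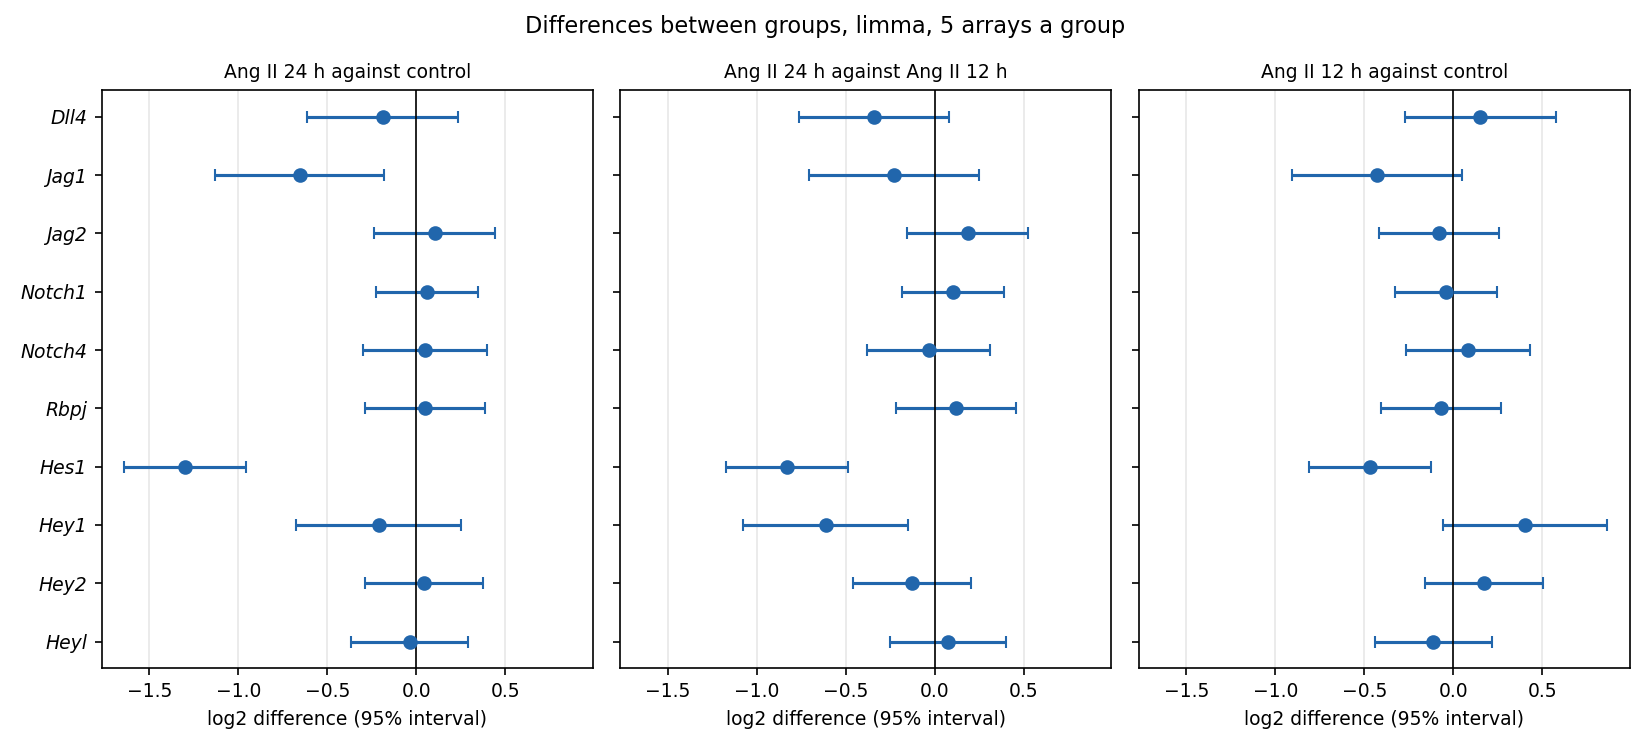
Log2 differences of the 10 Notch pathway genes (horizontal axis) with 95% intervals from limma, for Ang II 24 h against control, Ang II 24 h against Ang II 12 h and Ang II 12 h against control, 5 arrays a group. Hes1 lies at -1.30, -0.83 and -0.47, and the intervals of Hey2, Heyl, Notch1, Notch4, Dll4, Jag2 and Rbpj include 0 in each panel. The Hes1 interval at 24 h against control takes no account of the choice of Hes1 on that contrast.

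Counted over the members, 1 of 10, Hes1, had an adjusted p under 0.05 at 24 h against control, where 0.018% of all 22206 probe sets did. Since this contrast chose Hes1, nothing is read from that count. At 12 h against control 0 of 10 passed by limma, where 0% of all probe sets did, and at 24 h against 12 h 0 of 10 passed, where 0.0225% did. The count at an unadjusted p under 0.05 was 1 at 12 h against control (Hes1), 2 at 24 h against control (Hes1 and Jag1) and 2 at 24 h against 12 h (Hes1 and Hey1), all lower, beside 4.91%, 7.1% and 5.99% of all probe sets. The Duncan multiple range test that the methods name gave the same genes at an unadjusted p under 0.05, and after adjustment 0, 1 (Hes1) and 0 of 10. Groups without overlap were found for Hes1 in the 3 comparisons and for Hey1 at 24 h against 12 h, beside 0.689% of all probe sets at 12 h against control, 1.07% at 24 h against control and 1.2% at 24 h against 12 h. The median difference of the members was 0.003 at 24 h against control, -0.056 at 12 h against control and -0.082 at 24 h against 12 h, beside 0.004, 0 and 0.006 over all probe sets. The 3 comparisons share arrays in pairs, so these counts are not independent of each other. Hes1 was chosen on its low level at 24 h in these same arrays, so nothing is read from its part in any of them.

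**Figure D3:**
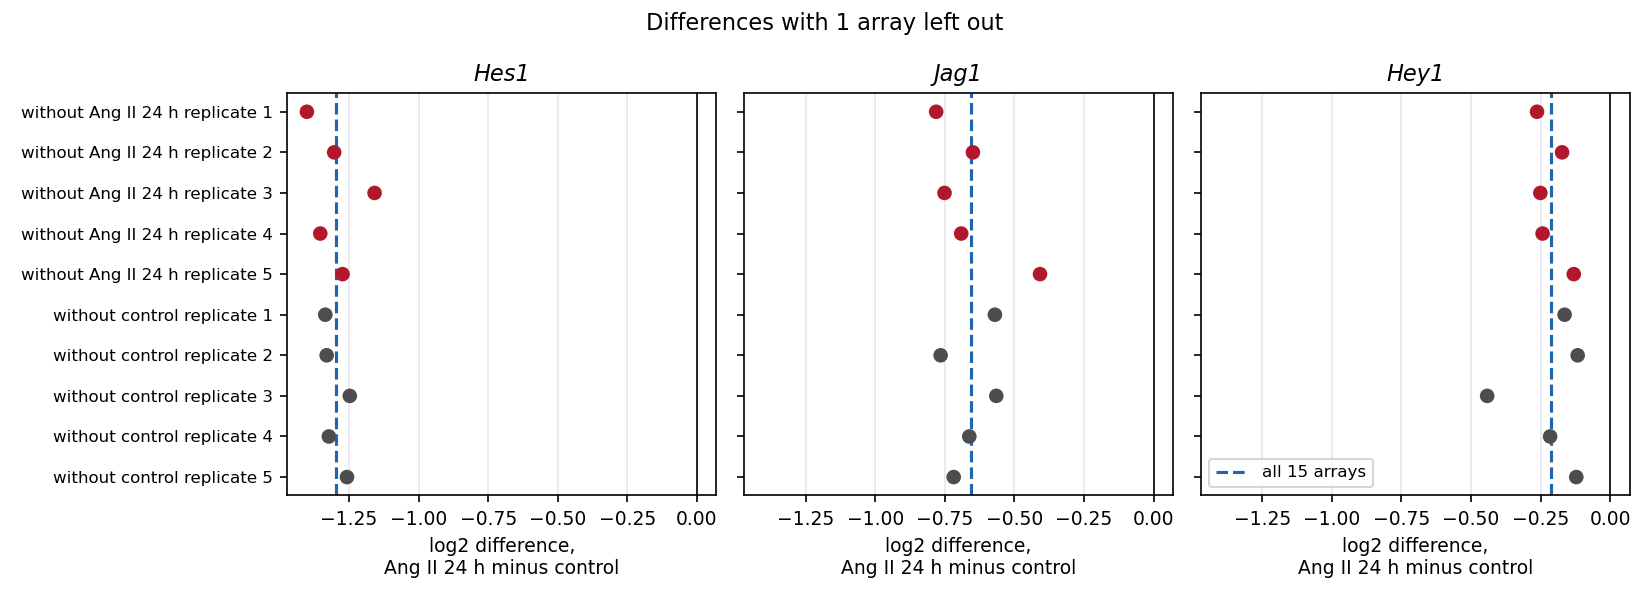
Log2 difference between Ang II 24 h and control (horizontal axis) of Hes1, Jag1 and Hey1 with each array of these groups left out in turn (rows), and with all 15 arrays (dashed line). Hes1 stays between -1.40 and -1.16, Jag1 moves to -0.41 without Ang II 24 h replicate 5, and Hey1 moves to -0.44 without control replicate 3.

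The rest of the pathway was read from a list of 63 further genes, of which 59 had a probe set. None of the 59 passed over all probe sets in any of the 3 comparisons by limma or after adjustment by the Duncan test. Before adjustment, 0 were higher and 1 was lower at 12 h against control, 2 were higher and 3 lower at 24 h against control, and 2 were higher and 2 lower at 24 h against 12 h. Of all probe sets, 4.91%, 7.1% and 5.99% had such a p in these comparisons, so the counts of the list were near the background. At 24 h against control the mean was higher for 25 and lower for 34, with a median difference of -0.03, while over all 22206 probe sets it was higher for 11255 and lower for 10865. Of the other Hes genes, the mean at 24 h was above control for 1 and below it for 5 of 6, with differences from -0.20 to 0.17.

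Dll1, a Delta ligand whose gene Hes1 represses in other mouse tissues, had the smallest p of the list. It had log2 levels of 5.01, 5.13, 5.14, 4.53 and 4.93 at 24 h. It had 4.66, 4.44, 4.26, 4.78 and 3.57 at 12 h, and 3.99, 4.17, 4.20, 3.84 and 4.88 in the control group. Control replicate 5 reached into the range of the arrays at 24 h, and the other 4 control arrays lay below it. The difference of Dll1 was 0.73 at 24 h against control (standard error 0.22, unadjusted p = 0.00316, limma adjusted p = 0.533) and 0.61 at 24 h against 12 h (standard error 0.22, adjusted p = 0.787), and its mean of 4.50 over the arrays lay below the mark of low signal.

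Nuclear cofactors held both genes of the list with the smallest p among those lower at 24 h, Tle3 and Ep300, and neither passed. Tle3, a Groucho corepressor that Hes proteins recruit, had 7.49, 7.55, 7.47, 7.58 and 7.33 at 24 h, against 7.99, 8.12, 7.66, 7.93 and 8.38 in the control group. These groups did not overlap, and Tle3 was the 1 gene of the list of which this was true at 24 h against control, where 1.07% of all probe sets had groups without overlap. Its difference was -0.53 (standard error 0.19, limma adjusted p = 0.565), and at 12 h the arrays lay between 7.31 and 8.41. Ep300, a histone acetyltransferase of the Notch activation complex, differed from control by -0.44 at 24 h (standard error 0.16, adjusted p = 0.592) and by -0.40 at 12 h (standard error 0.16, adjusted p = 0.966). Of 8 coactivators 6, and of 11 corepressors 7, had a lower mean at 24 h than in the control group, with 1 gene of each set at an unadjusted p under 0.05. These sets are small, and 10865 of all 22206 probe sets had a lower mean and 7.1% such a p, so nothing is read from these counts.

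Nrarp, a Notch target that limits the pathway in endothelium, differed from control by -0.42 at 24 h (standard error 0.20, limma adjusted p = 0.697). Its arrays lay between 3.88 and 4.28 at 24 h, against 3.83 to 5.02 in the control group, where replicate 5 was the lowest. The ubiquitin ligases Mib1 and Mib2, which drive the uptake of bound ligand, had 24 h minus 12 h differences of opposite sign, 0.56 for Mib1 (standard error 0.19) and -0.61 for Mib2 (standard error 0.22), each with an adjusted p of 0.787. Ncstn, a subunit of gamma-secretase, had -0.33 in that comparison (adjusted p = 0.814). At 12 h against control the deltex gene Dtx2 had 0.35, the fringe glycosyltransferase gene Lfng 0.45 and the receptor gene Notch3 -0.25, each with an adjusted p of 0.966. None of these differences passed the test.

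**Figure D4:**
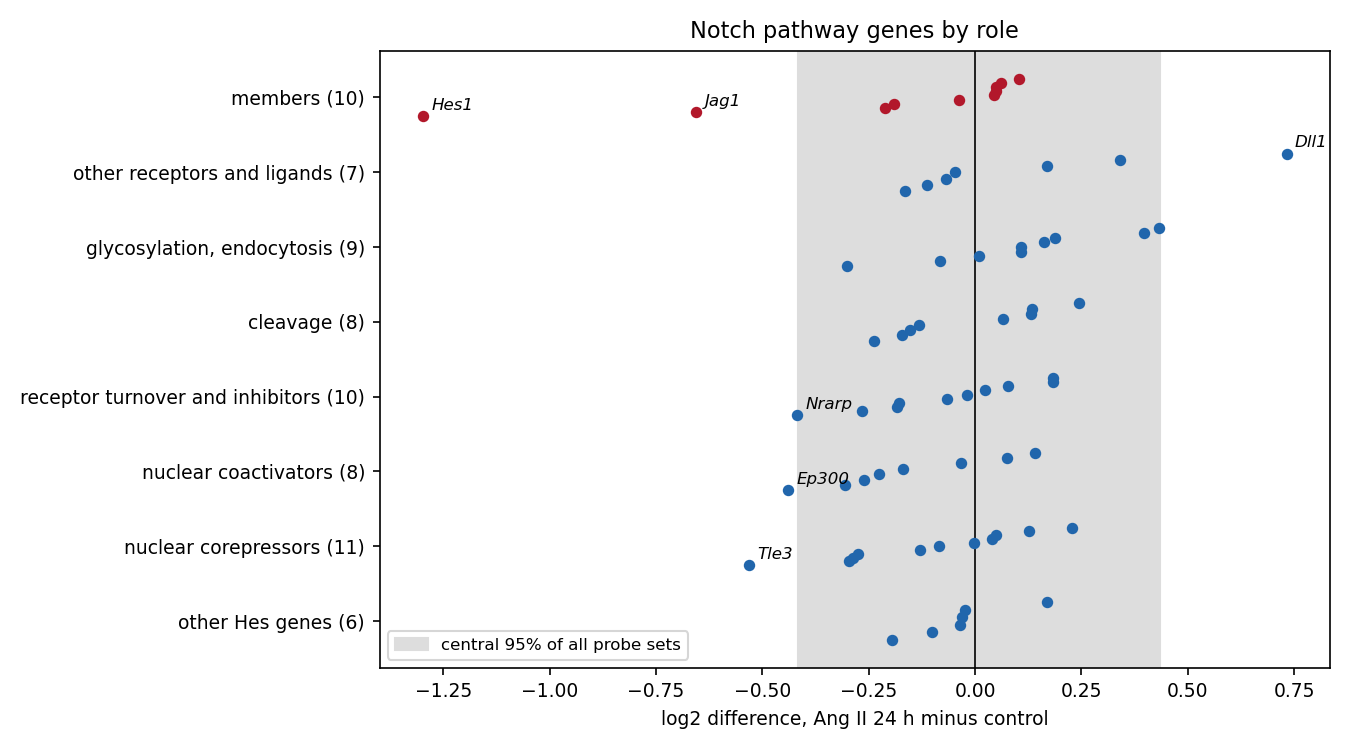
Log2 difference between Ang II 24 h and control (horizontal axis) of the 10 members (red) and of 59 further Notch pathway genes (blue), in rows by role with the number of genes, 1 point per gene. The grey band spans the central 95% of all probe sets, -0.42 to 0.43, and Hes1 (-1.30), Jag1 (-0.66), Tle3 (-0.53), Ep300 (-0.44) and Dll1 (0.73) lie outside it, with Nrarp (-0.42) at its edge.

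Genes that Notch is known to steer in endothelium did not pass either. Of 14 genes of tip cells, stalk cells and arteries, the mean at 24 h was above that of the control group for 9 and below it for 5, and 0 passed by limma, with 1 at an unadjusted p under 0.05, beside 7.1% of all probe sets. This was Kdr, the VEGF receptor that Notch lowers in stalk cells, with 4.35, 4.85, 5.24, 4.28 and 4.74 at 24 h, against 3.83, 4.30, 3.70, 4.27 and 4.21 in the control group. The difference of Kdr was 0.63 (standard error 0.21, adjusted p = 0.553), and the groups overlapped by 1 array at 24 h. Flt1, the decoy VEGF receptor, had 0.31 (standard error 0.18, adjusted p = 0.766). Of 7 genes known to be repressed by Hes1, the mean at 24 h was above control for 5 and below it for 2, and 0 passed by limma. Dll1, described above, and Neurog2, a neural transcription factor with 0.59 (standard error 0.24, adjusted p = 0.618), had an unadjusted p under 0.05, again beside 7.1% of all probe sets. Control replicate 5 had 6.29 for Neurog2, above every array at 24 h, and control replicate 3 had the lowest level, 4.68. The mean of Neurog2 over the arrays, 5.72, lay below the mark of low signal, as did those of Kdr and Flt1.

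The genes whose levels ran most like Hes1 over the 15 arrays were Dusp10 (r = 0.91), Myc (0.90), Egr3 (0.89), U2surp (0.89) and Abcf1 (0.87). With the group means taken out, the correlations were 0.41 for Dusp10, 0.61 for Myc, 0.56 for Egr3, 0.73 for U2surp and 0.74 for Abcf1. Dusp10 encodes a phosphatase of p38 and JNK, Myc a transcription factor of growth, Egr3 an early response transcription factor, U2surp a splicing factor and Abcf1 a translation factor. The lowest correlations belonged to Mrgpra4 (r = -0.87), 2310057M21Rik (-0.85) and 1700092M07Rik (-0.85), and with the group means taken out these were -0.86 for Mrgpra4, -0.57 for 2310057M21Rik and -0.68 for 1700092M07Rik. The r values describe 15 arrays of 3 groups, and taking out the group means lowered that of Dusp10 most and left that of Mrgpra4 nearly as it was. Within the groups, Hes1 lay furthest from its group mean in Ang II 24 h replicate 3, with 5.17 against a mean of 5.73. That array was 1 of the pair that stood apart, and how far the r values within the groups rest on it was not tested. The r values named over the 15 arrays are extremes picked from among the 19572 probe sets with 1 symbol. No other member was near them, and nothing is read from that. Jag1 had the highest correlation with Hes1 among the 9 other members, 0.54 over the arrays and 0.07 with the group means taken out, and the rest lay between -0.15 and 0.25. Within the groups the strongest pairs were Heyl with Rbpj (r = -0.74) and Hey1 with Heyl (r = 0.67), and in these pairs control replicate 3 held an extreme value of each gene.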

How the data were processed

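Total RNA of cultured mouse LECs was labelled with biotin and hybridised to Affymetrix expression arrays, 1 sample an array. The authors processed the scans with GCOS (version not given) and RMA and deposited log2 expression levels of 22206 probe sets in 15 arrays. The array design named in the methods differs from that of the probe set identifiers, and no genome build is given for them. The platform annotation gave 1 symbol to 19572 probe sets, and 2634 had none or several and were not named. The number of arrays limits the precision, since the levels carry no counts. The deposited log2 levels were fitted for all probe sets with limma 3.58.1 in R 4.3.3 (lmFit, contrasts, eBayes), with 5 arrays in each of 3 groups, no filter on low levels and Benjamini-Hochberg adjustment over all probe sets. A gene was called at an adjusted p under 0.05. The code was tested on simulated data. The members and gene lists were chosen with earlier results of these data known. Of the wider Notch list, the 4 genes with the smallest unadjusted p in each comparison are named, and of the endothelial list and the list of genes repressed by Hes1 the 2 smallest at 24 h against control. The 5 highest and 3 lowest correlations with Hes1 are named. Pairing was not assumed, since nothing marks equal replicate numbers as shared cultures. The residuals of 15 same-numbered pairs correlated between -0.043 and 0.045, which does not exclude pairing. Alternatives were quantile normalization, median centring, a filter on intensity, other variance models, array weights, a replicate block, averaging per gene, fitting the compared groups alone, the Duncan multiple range test of the methods, and leaving out arrays. Promoter windows came from RefSeq (GRCm38.p6).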

Additional observations from a re-analysis of the deposited data

Results flagged for a closer look

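In 2 of the 30 groups of 5 arrays that the 10 genes give, 1 array lay far from the other 4. Hes1 had a log2 level of 6.28 in Ang II 12 h replicate 5, where the gap to the nearest array took up 0.868 of the range of the group. Dll4 had 2.59 in Ang II 24 h replicate 4, with a gap of 0.788 of the range. Chance marks about 1 in 20 such groups.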

How the results depend on the processing

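The number of members called was 0 at 12 h against control, 1 at 24 h against control and 0 at 24 h against 12 h under every alternative run, the replicate block included, and that of the wider Notch list was 0 in each. The 1 call is Hes1, which was chosen on this contrast, so its return under the alternatives is no sign of stability. The replicate block changed no call, and 2 of 15 same-numbered pairs correlated best with their own number. With single arrays left out, 11 differences that had not passed changed sign, and the cause was not tested. At 24 h against control these ranged from -0.065 to 0.112 (Hey2), -0.17 to 0.035 (Heyl), -0.033 to 0.117 (Notch4), -0.011 to 0.154 (Jag2) and -0.035 to 0.203 (Rbpj). At 12 h against control they ranged from -0.107 to 0.031 (Notch1), -0.033 to 0.172 (Notch4), -0.195 to 0.005 (Jag2) and -0.155 to 0.083 (Rbpj). At 24 h against 12 h they ranged from -0.124 to 0.081 (Notch4) and -0.353 to 0.02 (Jag1). Without both arrays that stood apart, Rbpj had 0.083 at 12 h against control and 0.233 at 24 h against control, and Heyl had -0.197 at 24 h against control. The filter on intensity left out Hey2, Notch1, Notch4, Dll4 and Jag2, which have no value there. For the 7 members below the mark of low signal, a difference in transcript level may be hard to detect on these arrays.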
